A study of Caenorhabditis elegans with 2 samples.

Results

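The genes described here encode neuropeptides and insulin-like peptides of Caenorhabditis elegans. They are the protein-coding genes whose names begin with flp-, nlp- or ins-, together with pdf-1, pdf-2, snet-1 and ntc-1, and they number 144 of the 19973 protein-coding genes on the nuclear chromosomes. The set holds 31 flp genes, 71 nlp genes, 38 ins genes and the 4 named singly. The values are regions found by chromatin immunoprecipitation and sequencing (ChIP-seq) of ALR-1, the worm's homologue of Drosophila Aristaless, which belongs to the paired-like class of homeodomain proteins. A region was given to a gene when that gene had the nearest protein-coding transcript start to the middle of the region, at any distance. Under that rule 83 of the 12996 pooled regions belonged to a member (0.639%).

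Whole larvae of the second stage (L2), of mixed sex, were used throughout. The strain, OP200, carries the unc-119(ed3) III mutation and the transgene wgIs200, from which ALR-1 is made with an eGFP tag. There was 1 group with 2 biological replicates, so no comparison between conditions was possible. The tagged copy is additional to the gene on the X chromosome, and because whole animals were used, a region cannot be assigned to a tissue. A control library was not analysed here.

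Neuropeptides are made as precursors that are cut, trimmed and often amidated in the secretory pathway, packed into dense-core vesicles, and released to act on receptors, most of them coupled to G proteins. The flp genes encode FMRFamide-like peptides, the ins genes encode insulin-like peptides that act through the receptor DAF-2, and the nlp genes encode peptides of many other families. In this animal they are made by neurons and also by the intestine and the epidermis. ALR-1 is needed for several sensory and motor neurons to develop, and proteins of its homeodomain class generally bind sequences with a TAAT core.

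Regions near 8 members are shown first because they hold the short homeodomain-type sequences counted further on. Each sequence is 201 bases of the RefSeq WBcel235 genome, which is the sequence of ce11, on the plus strand from 5′ to 3′, with the middle of the pooled region at its centre. Capitals mark TAATTA, which reads the same on both strands, and TAATTG, which appears as CAATTA where it lies on the other strand. The windows are chrX:10600002-10600202 for flp-19, chrX:8591938-8592138 for nlp-7, chrX:2161648-2161848 for pdf-2, chrV:11616316-11616516 for nlp-24, chrX:12663788-12663988 for nlp-76, chrX:13178640-13178840 for nlp-3, chrV:3987682-3987882 for nlp-28 and chrX:3015798-3015998 for flp-18. These windows were picked because they hold a match. The first 6 belong to genes named by the rule, and nlp-28 and flp-18 are outside that rule. Of the other named genes, nlp-40 and nlp-4 hold TAATTG in the window of their strongest region but are not shown. The strongest regions of ins-39, ins-13, nlp-66, ins-18, nlp-36, nlp-14, nlp-53, pdf-1 and nlp-8 have no match in that window and are not shown. The nlp-24 and nlp-76 windows straddle a transcript start, and the others lie upstream of the nearest one; that of flp-18 is also within an intron of a longer flp-18 transcript.
flp-19: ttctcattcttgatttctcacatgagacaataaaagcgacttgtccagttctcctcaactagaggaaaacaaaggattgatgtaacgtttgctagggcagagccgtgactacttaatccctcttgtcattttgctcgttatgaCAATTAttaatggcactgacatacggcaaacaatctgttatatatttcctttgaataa
nlp-7: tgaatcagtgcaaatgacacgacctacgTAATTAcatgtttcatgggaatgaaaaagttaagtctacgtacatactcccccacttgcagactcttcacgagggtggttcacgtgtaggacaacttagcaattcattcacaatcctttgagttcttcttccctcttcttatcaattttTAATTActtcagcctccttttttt
pdf-2: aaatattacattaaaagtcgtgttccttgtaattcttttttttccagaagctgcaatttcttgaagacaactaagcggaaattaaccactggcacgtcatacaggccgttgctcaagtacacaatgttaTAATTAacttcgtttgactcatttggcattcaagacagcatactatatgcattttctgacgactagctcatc
nlp-24: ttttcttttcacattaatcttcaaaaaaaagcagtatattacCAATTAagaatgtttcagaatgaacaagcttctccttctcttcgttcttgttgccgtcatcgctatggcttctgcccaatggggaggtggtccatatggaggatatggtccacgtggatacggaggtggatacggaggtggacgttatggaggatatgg
nlp-76: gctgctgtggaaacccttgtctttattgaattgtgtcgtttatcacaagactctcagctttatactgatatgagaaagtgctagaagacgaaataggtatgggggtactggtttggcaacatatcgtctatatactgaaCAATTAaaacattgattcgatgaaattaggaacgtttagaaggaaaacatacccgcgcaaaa
nlp-3: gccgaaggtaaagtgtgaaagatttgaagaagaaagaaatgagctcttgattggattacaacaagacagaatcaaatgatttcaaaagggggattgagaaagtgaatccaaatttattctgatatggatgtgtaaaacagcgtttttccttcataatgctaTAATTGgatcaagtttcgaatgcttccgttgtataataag
nlp-28: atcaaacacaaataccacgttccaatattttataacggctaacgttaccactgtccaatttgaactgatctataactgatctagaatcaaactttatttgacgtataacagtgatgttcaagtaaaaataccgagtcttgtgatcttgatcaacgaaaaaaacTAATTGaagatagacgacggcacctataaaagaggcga
flp-18: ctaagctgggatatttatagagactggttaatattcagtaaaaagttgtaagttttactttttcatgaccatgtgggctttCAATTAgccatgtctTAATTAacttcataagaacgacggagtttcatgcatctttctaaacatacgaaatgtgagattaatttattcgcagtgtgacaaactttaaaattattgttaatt
The nlp-7 window holds TAATTA at 2 places, and the flp-18 window holds both sequences. The other windows hold 1 match each.

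No member had a peak in the authors' IDR list. IDR, the irreproducible discovery rate, keeps regions that rank alike in replicates, and that list held 103 peaks. Those peaks were the 103 strongest regions of the pooled list, and they lay nearest to 96 genes, 0.481% of all genes. A count of 0 of 144 has an exact 95% upper bound of 2.53%, which is above that background share. What follows therefore describes candidate regions. A candidate is an entry in a list made permissive on purpose for the IDR step, with background regions mixed in, and was not accepted as a peak by the authors on that ground alone.

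In the pooled list, 57 of the 144 members had a region (39.6%, 95% interval 31.5 to 48.1%), against 36.8% of all protein-coding genes. The share was 51.6% for flp genes (16 of 31, interval 33.1 to 69.9%). It was 40.9% for nlp genes (29 of 71, interval 29.3 to 53.2%) and 26.3% for ins genes (10 of 38, interval 13.4 to 43.1%). Each of these family intervals contains the background share, and the intervals of the families overlap. Intervals are exact (Clopper-Pearson), cover counting error only and treat genes as independent.

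**Figure D1:**
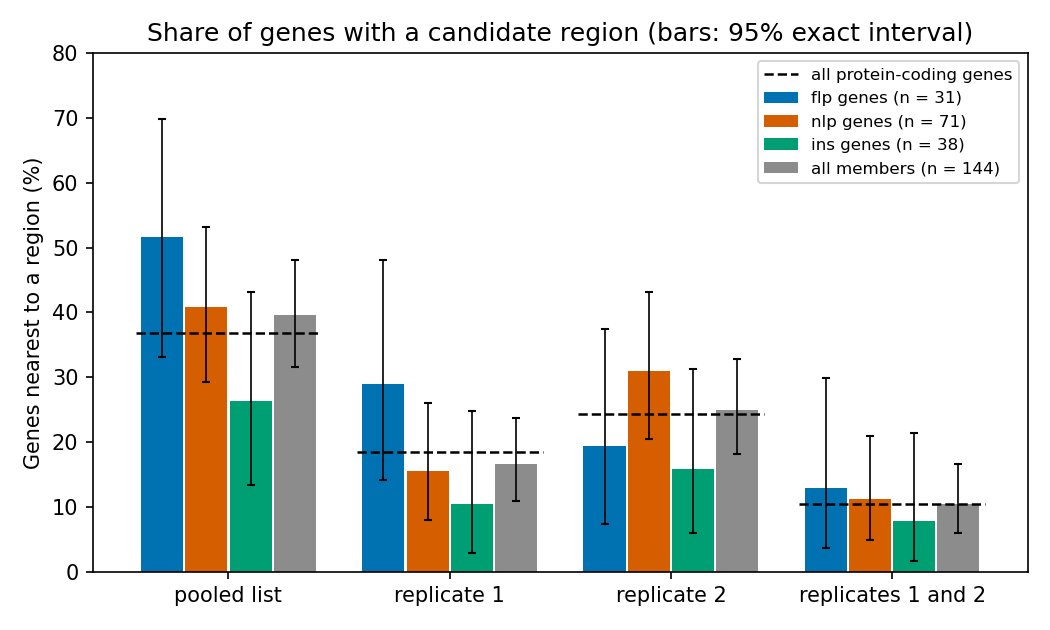
Share of genes (percent) nearest to at least 1 region, for each gene family and for all members, in the pooled list, in each replicate and in both replicates. Lines on the bars are exact 95% intervals and dashed lines the share over all protein-coding genes. The pooled flp share is the highest of the 3 families (51.6%) and the ins share the lowest (26.3%), with overlapping intervals.

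The replicates gave lower shares and did not order the families alike. In replicate 1, whose list had 5071 regions, 24 members had a region (16.7%), against 18.5% of all genes. They were 9 flp, 11 nlp and 4 ins genes. In replicate 2, whose list had 7568 regions, 36 members had a region (25.0%), against 24.4% of all genes. They were 6 flp, 22 nlp and 6 ins genes with pdf-2 and ntc-1. The flp genes had the highest family share in replicate 1 (29.0%), whereas the nlp genes had it in replicate 2 (31.0%). Both lists had a region for 15 members (10.4%), against 10.5% of all genes. For 7 members the same pooled region overlapped a region of each replicate (4.86%), against 6.67% of all genes. Each of these shares lay near its background.

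Those 7 genes were nlp-40, flp-19, nlp-7, ins-39, ins-13, nlp-66 and nlp-3. The other 8 members with a region in both lists but no pooled region that overlapped both were flp-13, flp-14, flp-18, nlp-8, nlp-13, nlp-55, nlp-76 and ins-18. At nlp-13 the replicate regions at rank 2647 of replicate 1 and rank 6351 of replicate 2 overlapped each other, without a pooled region that overlapped both.

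Signal, the authors' value for the strength of a region on a scale that is not stated, ran from 49.9 down to 2.53 in the pooled list. The member regions had a median of 3.67, against 3.89 for all pooled regions, and the median member region lay at percentile 42.2 of the list. None was among ranks 1 to 103, 3 were at ranks 104 to 500, 3 at 501 to 1000 and 3 at 1001 to 2000. A further 9 lay at ranks 2001 to 4000, 25 at 4001 to 8000 and 40 at 8001 to 12996. These bins differ in size. In the bins down to rank 2000, members held 0%, 0.756%, 0.6% and 0.3% of the regions, in order. In the later bins they held 0.45%, 0.625% and 0.801%, against 0.639% of the whole list. In all, 52 of the 83 (62.7%) were in the weaker part of the list when it was divided at its median signal. The −log10 q-value stood at its ceiling in 2 member regions (2.41%), against 402 of all regions (3.09%).

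**Figure D2:**
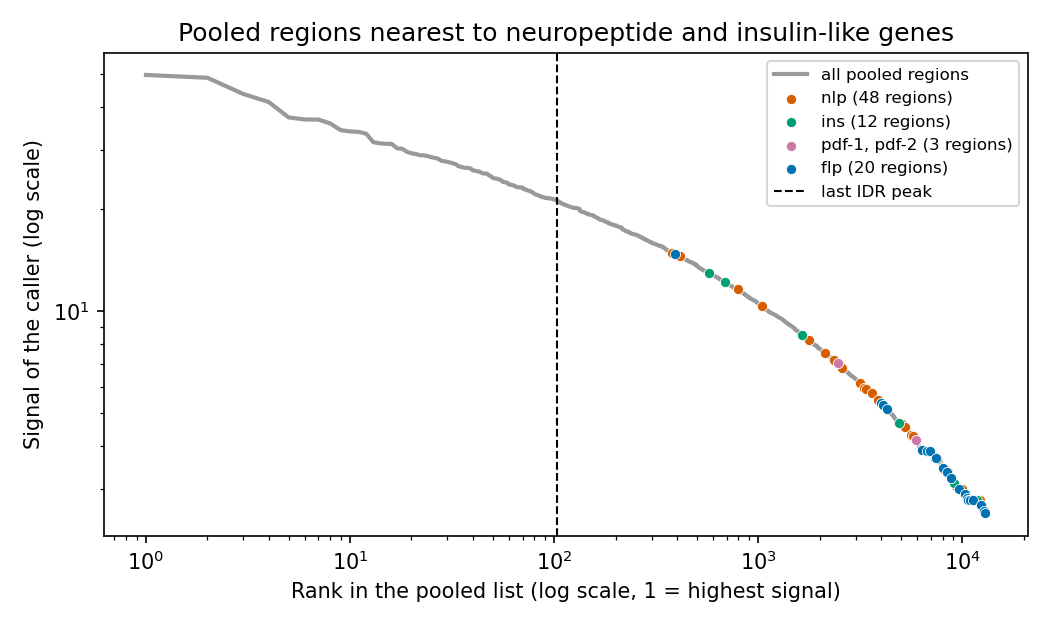
Signal of each pooled region (authors' scale) against its rank in the pooled list, both on log axes, with the last IDR peak as a dashed line and the 83 member regions coloured by gene family. The strongest member region, at nlp-40, stands at rank 380, and 40 of the 83 lie at ranks 8001 to 12996, which hold 4996 of all 12996 regions.

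The strongest member region lay near nlp-40, which encodes a peptide released by the intestine that drives the expulsion step of defecation. It had rank 380 and signal 14.9 in the pooled list (chrI:16796-17115), and its middle was 1853 bp downstream of the nearest nlp-40 start. That middle, at I:16956, lay between genes, past the end of nlp-40 at I:16837. The region overlapped one of signal 3.42 at rank 1784 in replicate 1, and one of signal 12.2 at rank 193 in replicate 2. Both replicates thus had it, but much higher in the order of replicate 2. A second nlp-40 region, at rank 12399 with signal 2.69, lay in an exon of rcor-1.

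The region upstream of flp-19, a FMRFamide-like precursor gene, followed at rank 392 with signal 14.8 (chrX:10599942-10600261). Its middle was 4584 bp upstream of the start. The overlapping regions had rank 597 and signal 5.31 in replicate 1, and rank 234 and signal 11.7 in replicate 2. It was the only flp region among the 15 strongest members. A second flp-19 region, 819 bp upstream, had rank 8394 and signal 3.37.

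At nlp-7 the strongest region had rank 412 and signal 14.5 (chrX:8591878-8592197), and its middle was 1143 bp upstream of the start. It matched rank 2401 (signal 3.00) in replicate 1 and rank 377 (signal 9.95) in replicate 2. Again the place was present in both lists and ranked higher in replicate 2. A second region 571 bp upstream had rank 6321.

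Of the insulin-like genes, ins-39 and ins-13 had the strongest regions. The ins-39 region had rank 574 and signal 12.99 (chrX:1344874-1345193), 613 bp upstream of the start and so within the promoter, defined here as 1000 bp upstream to 200 bp downstream of a start. In replicate 1 it overlapped 2 regions, at ranks 3971 (signal 2.44) and 4237 (signal 2.35). In replicate 2 it overlapped the region at rank 171 (signal 12.8). The ins-13 region had rank 687 and signal 12.2 (chrII:5543367-5543686), 1337 bp downstream of the start. It lay between genes, beyond the 3′ end of ins-13 (II:5544512-5544864, minus strand). In replicate 1 it overlapped 2 regions, at ranks 235 (signal 7.03) and 503 (signal 5.61). In replicate 2 it overlapped the region at rank 1264 (signal 6.32), so the order between replicates was opposite to that of ins-39. The ins-13 region also overlapped sls-2.2, an SL2 spliced-leader RNA gene at II:5543598-5543707. The part that the RNA gene has in this signal was not tested.

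The third insulin-like gene among the strongest 15 was ins-18, which encodes a peptide that antagonises DAF-2. Its intronic region had rank 1640 and signal 8.55 (chrI:8148185-8148504). It overlapped rank 1367 of replicate 2 (signal 6.11) and no region of replicate 1. A promoter region of ins-18, 91 bp upstream, had pooled rank 7330 and overlapped rank 2327 of replicate 1 (signal 3.00). The gene was therefore in both replicate lists through separate places. Among the other insulin-like genes, ins-7, an intestinal and neuronal DAF-2 agonist, had a region at rank 7517 (signal 3.67), and ins-4, another agonist, had one at rank 10881 (signal 2.78). The regions of ins-2, ins-12, ins-17, ins-33 and ins-36 lay at ranks 4872 to 11852. The insulin-like genes outside the top 15 were picked with their values known.

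The region at nlp-66 had rank 1038 and signal 10.4 (chrX:11116309-11116628), inside an intron 354 bp downstream of the start. It ranked 862 (signal 4.65) in replicate 1 and 804 (signal 7.56) in replicate 2, the most even pair of ranks among those 7 members. The nlp-66 gene (X:11116107-11116823) lies 5047 bp from alr-1 (X:11121871-11125620), on the same strand. The chromosomal alr-1 gene had 21 pooled regions. The transgene carries alr-1, and how far it extends towards nlp-66 is not given in the sources used here, so binding at the chromosome and extra copies from the transgene cannot be told apart. Its other regions, at ranks 7257 and 11281, overlapped no replicate region, and the first of these lay in an intron of grd-1.

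Of the 15 strongest, 6 further nlp regions were present in 1 replicate list or in neither. The nlp-4 promoter region had rank 795 and signal 11.6 (33 bp upstream) and overlapped rank 813 of replicate 2. A start of exos-3 lay 291 bp from the middle of that region, so its assignment to nlp-4 is by distance alone. The nlp-36 region had rank 1778 and signal 8.21 (1139 bp upstream) and overlapped rank 1030 of replicate 2. At nlp-24, one of a group of nlp genes for glycine-rich YGGW-type peptides, the region had rank 2587 and signal 6.83 (40 bp downstream) and overlapped rank 1969 of replicate 2. These 3 had no overlapping region in replicate 1.

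The nlp-53 region had rank 2352 and signal 7.17, 5892 bp upstream, and overlapped rank 4370 of replicate 1. The nlp-76 region had rank 3142 and signal 6.14 and overlapped rank 2302 of replicate 1; its middle lay in an exon shared by nlp-76 and nhr-17. These were found in replicate 1 and not in replicate 2. The nlp-14 region, at an orcokinin-type precursor gene, had rank 2126 and signal 7.53, 188 bp downstream of the start, and overlapped no region of either replicate.

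The gene with the most regions was nlp-3, whose peptides from the HSN neurons stimulate egg laying. It had 5 pooled regions, of which those at ranks 9168 and 12689 overlap each other. The strongest, at rank 3299 with signal 5.93 (chrX:13178580-13178899), lay in the promoter 293 bp upstream and overlapped rank 3875 (signal 2.46) in replicate 1 and rank 4338 (signal 3.16) in replicate 2. The others had ranks 5073, 6866, 9168 and 12689, and of these the first alone overlapped a replicate region, at rank 3561 of replicate 2. At nlp-8 and nlp-66 there were 3 regions each. Of the other members, 18 had 2 regions, 36 had 1 and 87 had none.

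**Figure D3:**
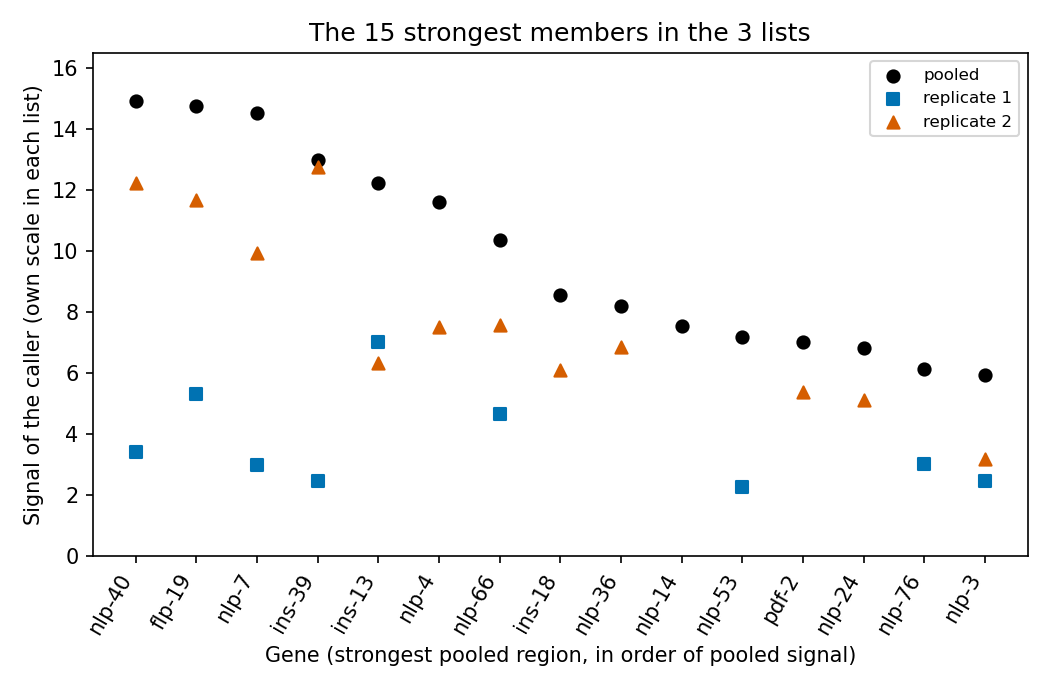
Signal of the strongest pooled region (circles) of each of the 15 members with the highest pooled signal, with the signal of the overlapping region of replicate 1 (squares) and replicate 2 (triangles) where there is one, each on the authors' scale for its own list. At ins-39 and ins-13, where 2 regions of replicate 1 overlap, the stronger is drawn. For 7 of the 15 genes both replicates have an overlapping region, for 5 only replicate 2, for 2 only replicate 1, and for nlp-14 neither.

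Of these 15 strongest regions, 6 lay in promoters and 9 on the X chromosome. They belonged to 10 nlp genes, 3 ins genes, 1 flp gene and pdf-2. Across all 83 member regions, 27 lay on X (32.5%), against 24.01% of all pooled regions, while 25.7% of the members and 13.7% of all genes are on X.

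The 4 singly named genes had few regions. At pdf-2, which encodes a pigment-dispersing factor peptide that acts on locomotion, the stronger region had rank 2450 and signal 7.02 (chrX:2161588-2161907), 1636 bp upstream, and overlapped rank 1764 of replicate 2 (signal 5.39). A second pdf-2 region, 5346 bp upstream, had rank 5941 and signal 4.16 and overlapped rank 3695 of replicate 2 (signal 3.51). Neither overlapped a region of replicate 1. The related gene pdf-1 had 1 region, at rank 10989 with signal 2.78, in an intron (chrIII:6911118-6911437), and it overlapped no replicate region. The nematocin gene ntc-1, related to oxytocin and vasopressin, had no pooled region and 1 region at rank 4722 of replicate 2 (signal 2.99). No list had a region for snet-1, which encodes a peptide that limits olfactory plasticity.

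After flp-19, the next flp genes in the pooled order were flp-33 at rank 4007 (signal 5.37), flp-23 at rank 4097 (signal 5.29) and flp-18 at rank 4261 (signal 5.16). The flp-33 promoter region overlapped rank 406 of replicate 1 (signal 5.94), which only an ins-13 region preceded among the members there, and no region of replicate 2, whereas flp-23 and flp-18 overlapped ranks 2168 and 2470 of replicate 2 and no region of replicate 1. At flp-13, a sleep-promoting gene of the ALA neuron, both regions lay inside itr-1, at ranks 6912 and 7404. The median signal was 3.30 over the 20 flp regions, 3.81 over the 48 nlp regions and 3.52 over the 12 ins regions.

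No region in any list was nearest to 14 flp genes, 40 nlp genes, 28 ins genes or snet-1. These include flp-1, which acts in locomotion, the sleep-promoting nlp-22, the epidermal antimicrobial gene nlp-29, and the DAF-2 ligand genes ins-1 and ins-6. A further 4 members were only in a replicate list. They were flp-11, a sleep-promoting gene of the RIS neuron, at rank 4539 of replicate 1, nlp-80 at rank 1921 of replicate 1, nlp-26 at rank 6896 of replicate 2, and ntc-1. Absence from these lists does not show that the protein was not bound, since the depth is unknown. Lacking a pooled region was common, as only 36.8% of all protein-coding genes had one, against 39.6% of members. That comparison covers the pooled list alone. For absence from every list, or presence in a replicate list only, no share over all genes is given here. The absences named above are thus not a result about the members.

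Of the 83 member regions, 28 lay in promoters (33.7%, interval 23.7 to 45.0%), against 40.3% of all pooled regions. Another 20 lay in introns (24.1%, against 21.5%), 7 in exons (8.43%, against 11.8%) and 28 between genes (33.7%, against 26.4%). The median distance from the start was 926 bp, against 1012 bp, and 57.8% were upstream, against 59.97%. The middle of 27.7% lay inside the member gene itself (interval 18.5 to 38.6%), against 41.5% for all regions and their nearest gene. That interval does not contain the 41.5%, but it treats the regions as independent. Gene length was not taken into account, and its part in this difference was not tested. In 10 regions (12.0%, against 8.55%) the middle lay inside another gene only. Examples are the nlp-43 region in an intron of C45G9.6 and the nlp-19 region in an intron of pbo-4. Assignment to the member is by distance alone in these regions.

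**Figure D4:**
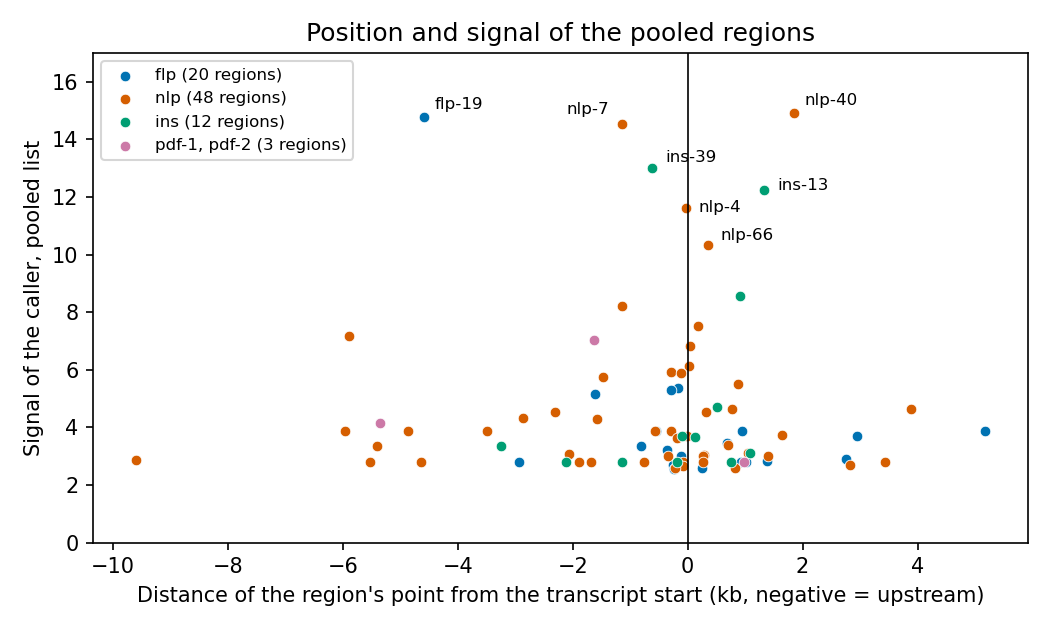
Signal of each of the 83 pooled member regions (authors' scale) against the distance of its middle from the nearest member start in kb, with upstream negative and colours for the gene families. Of the regions 83.1% lie within 3000 bp of the start, and the strongest ones, at nlp-40 and flp-19, lie 1853 bp downstream and 4584 bp upstream.

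Regions of each replicate overlapped 27.7% of member regions in replicate 1 (all pooled regions, 30.9%) and 44.6% in replicate 2 (48.6%). Both replicates overlapped 8 member regions (9.64%, against 13.3%). Of the 83 regions, 6 overlapped a gene for a small structured RNA (7.23%), against 255 of all 12996 (1.96%). These were both ins-13 regions, which share sls-2.2, tRNA genes at nlp-76 and flp-23, the snoRNA gene F59C6.15 at nlp-4 and the snRNA gene ZK1251.14 at ins-7. The last 2 overlap at an edge only. The nlp-4 region starts at I:10517117 and F59C6.15 ends at I:10517150. The ins-7 region ends at IV:9682880 and ZK1251.14 starts at IV:9682879. The part of these RNA genes in the signal was not tested. Some member regions overlap each other, so the 83 are not independent: 10 of them form 5 overlapping pairs.

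Homeodomain-type sequences were counted within 100 bp of the middle of each region, on both strands. TAATTA was present in 8 of the 83 member regions (9.64%), against 7.97% of all pooled regions. It was in 10.4% of tiles of 201 bp nearest to a member start and in 9.32% of tiles over the genome, and the share of member regions lay between these. In promoters it was in 3.57% of member regions, against 8.73% of all. In replicate 1 it was in 4 of 31 member regions (12.9%, interval 3.63 to 29.8%), against 7.06% of all. In replicate 2 it was in 7 of 43 (16.3%, interval 6.81 to 30.7%), against 7.74%. It was present in the strongest nlp-7 and pdf-2 regions printed above. TAATTG, which differs from TAATTA in its last base and was added after the data had been seen, was present in 27 member regions (32.5%, interval 22.7 to 43.7%), against 14.1% of all pooled regions. The corresponding shares were 25.8% against 12.9% in replicate 1 and 25.6% against 13.8% in replicate 2. TAAT followed by ATTA after a gap of 3 bases, a form bound by pairs of homeodomain proteins, was in 2 member regions (2.41%, against 0.908%). No test was made on these shares, since several sequences and subsets were examined.

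By gene, 21 of the 57 members with a pooled region had TAATTG in at least 1 (36.8%), against 22.3% of the 7350 genes with a pooled region. The share was 42.9% for member regions in promoters, against 14.5% of all promoter regions, and 27.3% outside them, against 13.9%. Among regions that overlapped a replicate region it was 38.5%, against 13.05%, and among those that overlapped none 22.6%, against 16.2%. In the stronger part of the list it was 35.5%, against 12.5%, and in the weaker part, with 52 of the 83 member regions, 30.8%, against 15.7%. Of the tiles nearest to a member start 16.8% held TAATTG, against 15.8% of tiles over the genome. Among the 1363 hexamers present in at least 5% of all pooled regions, TAATTG ranked 9 by the ratio of its share in member regions to its share in all regions (2.31), and TAATTA ranked 375 (1.21). The median ratio was 0.984. Mean GC content was 36.9% in member regions and 38.4% in all pooled regions, and its part in the difference was not tested.

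Other genes tied to the making, release and action of these peptides were counted by the same rule, from lists of textbook members. These lists were put together by hand with earlier results of these data known. Their shares therefore describe the listed genes only and are no independent support. The insulin signalling list includes daf-28, which the name rule leaves out of the members. Of 18 genes for peptide processing and release, 15 had a pooled region (83.3%, against the 36.8% of all genes), and for 10 the same region overlapped both replicates. The strongest were at pamn-1, a peptide-amidating enzyme gene (rank 159, signal 19), unc-108, the Rab2 gene (rank 186, signal 18.2), egl-21, the carboxypeptidase E gene (rank 442, signal 14.2), and ida-1, a dense-core vesicle protein gene (rank 466, signal 14.0). The egl-21 region lay 82 bp upstream of the start and ranked 242 and 357 in the replicates. The pamn-1 and unc-108 regions ranked above every member region, and the egl-21 and ida-1 regions ranked below those of nlp-40, flp-19 and nlp-7.

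Of 15 insulin signalling genes, 9 had a pooled region (60%, against 36.8% of all genes), and for 4 the same region overlapped both replicates. The insulin receptor gene daf-2 had its strongest region at rank 1199 (signal 9.78), in an intron, which ranked 166 in replicate 1 and 2799 in replicate 2. The FOXO gene daf-16, which DAF-2 signalling restrains, had many regions, the strongest at rank 1171 (signal 9.86). Against the same 36.8%, 67 of 103 neuropeptide receptor genes had a pooled region (65.0%), the strongest at the PDF receptor gene pdfr-1 (rank 676, signal 12.3), and 4 had the same region in both replicates. Of 23 neprilysin peptidase genes, whose products degrade peptides outside cells, 6 had one (26.1%, below the 36.8% of all genes), the strongest at nep-17 (rank 621, signal 12.7), and 0 had the same region in both replicates. The same region was seen in both replicates for 6.67% of all genes. None of the 4 lists had an IDR peak.

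These shares depend on how much sequence lies nearest to a gene. Members had a median of 5.24 kb of such sequence, against 3.78 kb for all genes. Per megabase of it, members had 100.5 pooled regions, against 129.6 for all protein-coding genes. The density was 83.0 for flp genes, 120.3 for nlp genes and 77.3 for ins genes. It was 306 for processing and release genes, 233 for insulin signalling genes, 113 for receptor genes and 71.0 for neprilysin genes. Many of the insulin signalling regions were at daf-16 alone, and many of the neprilysin regions at nep-26 alone. Several processing and release regions were at each of ida-1, pamn-1 and pkc-1. The density of a list therefore need not hold for most of its genes. By density the flp genes, which had the highest share of genes with a region among the 3 families, had fewer regions than the nlp genes.

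**Figure D5:**
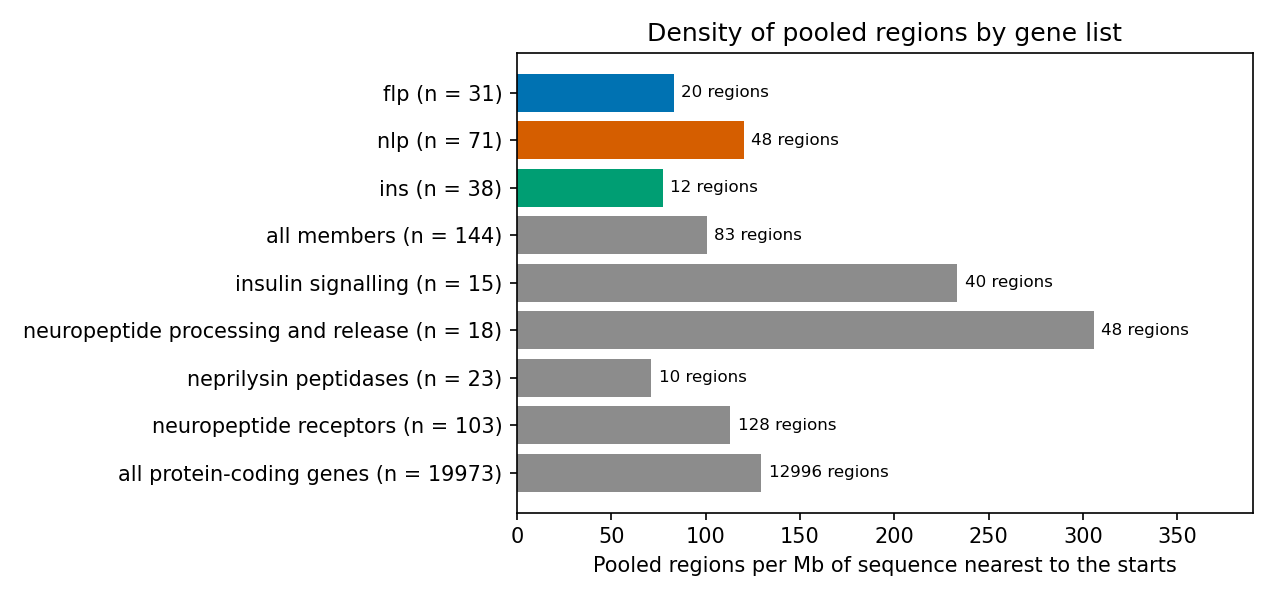
Pooled regions per megabase of sequence nearest to the transcript starts of each gene group, with the number of regions beside each bar and all protein-coding genes as the last bar. The member families lie between 77.3 and 120.3 and the processing and release genes at 306, against 129.6 for all genes.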

How the data were processed

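The members and gene lists were chosen with earlier results of these data known. Per the file notes, the authors called regions on each replicate with a control and on both replicates together, and derived the optimal IDR list from them. The deposited signal values are on a scale that is not stated, and the deposited q-values are −log10 values, by the file format. Aligner, caller and IDR cutoff: not given in the sources used here. Read depth is unknown. Lists on ce10 were not used.

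Regions were ranked by signal within a list. Genes came from Ensembl release 115 (WBcel235, equal to ce11), and sequences from the RefSeq assembly. Overlap required at least 1 bp. Named genes were the 4 singly named ones, nlp-66, members with an IDR peak, the 15 with the highest signal, the 5 with the most regions, and those with a region seen in both replicates. Others were named after their values were seen. Python 3.11.15, scipy 1.17.1, numpy 2.4.6 and matplotlib 3.10.9 were used. Only the nearest-start and overlap steps of the code were tested, on cases with known answers.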

Additional observations from a re-analysis of the deposited data

How the results depend on the processing

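No paired analysis was possible because the design has 1 group. Of the results recomputed under other settings, 46 values stayed within the spread or 1.5 times the main count, and 13 moved. The comparison with all genes or regions turned for 2 results, the members with a pooled region and the TAATTA share. The count of members with a pooled region was 57; it was 26 with the stronger part of each list, 35 within 1000 bp of the start, and 24 to 36 with 1 replicate list alone. As a share of members this was above all genes in the main setting (39.6 against 36.8%) and below them in the stronger part (18.1 against 21.7%), within 1000 bp (24.3 against 25.3%) and with replicate 1 alone (16.7 against 18.5%). The count of members in both replicates was 15 (10.4%, against 10.5% of all genes). It was 8 (5.56%, against 6.33%) when the replicate regions had to overlap each other. With the stronger part of each list it was 7 (4.86%, against 4.98%), and within 1000 bp of the start 4 (2.78%, against 5.21%). The share of member regions seen in both replicates was 22.6% in the stronger part, against 24.3% of all pooled regions there. The promoter share was 49.4% with a promoter reaching 2000 bp upstream and 63.6% within 1000 bp of the start, where it was 55.5% and 80.9% of all pooled regions. With replicate 1 alone the promoter share was 29.0%, against 40.7% of all, and with replicate 2 alone 34.9%, against 43.5%. TAATTA was in 19.3% of member regions within 250 bp, against 20.7% of all, and in 4.55% of those within 1000 bp of the start, against 8.49%. With replicate 1 alone TAATTA was in 12.9%, against 7.06% of all, and with replicate 2 alone in 16.3%, against 7.74%. TAATTG, added after the data had been seen, was in 18.1% within 50 bp, against 7.57%, and in 48.2% within 250 bp, against 33.3%. With replicate 1 alone TAATTG was in 25.8%, against 12.9%, and with replicate 2 alone in 25.6%, against 13.8%. With the 103 strongest regions of 1 replicate alone in place of the IDR list, also added later, 0 members had a region under either. The lists give no read counts, so what depth limits is unknown, and 2 replicates of 1 group give no error for a single region.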
